A study of Homo sapiens with 4 samples.

Results

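The ERK feedback genes DUSP4, DUSP5, DUSP6, SPRY1, SPRY2, SPRY4, SPRED1, SPRED2, ETV4 and ETV5 were followed in a breast cancer cell line with and without depletion of the scaffold protein SASH1. The 10 genes were chosen by symbol, with earlier results of these data known. They were matched to the Ensembl identifiers of the table through the GENCODE annotation of hg38. All 10 of 10 were found among the 26518 genes listed. The data are RNA-seq libraries of MDA-MB-468 cells, an established human line from a triple-negative breast cancer. Control cells carried the lentiviral vector pGIPZ-CTRL (shControl, 2 libraries) and depleted cells a lentiviral short hairpin RNA against SASH1 (shSASH1, 2 libraries). Both were grown in DMEM with serum and kept as puromycin-selected stable cells. The labels name stable clones but not how many, nor how many hairpins, nor whether replicates were grown apart. All p-values below thus reflect the spread among these libraries alone, and that spread may be technical.

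ERK is the last kinase of the RAS-RAF-MEK cascade, which relays signals from growth factor receptors such as EGFR. Active ERK induces transcripts whose products restrain the same pathway. Sprouty (SPRY) and Spred (SPRED) proteins act near the membrane between receptor and RAF, dual-specificity phosphatases (DUSP) remove the activating phosphates from MAP kinases, and the PEA3 transcription factors ETV4 and ETV5 are ERK-induced activators held down by the repressor Capicua. Levels of these transcripts are widely read as an indirect measure of ERK output. ERK phosphorylation was not measured here.

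Values were TPM, a transcript level scaled for gene length and library size, so levels of different genes can be compared. TPM keeps no depth. Read numbers rebuilt from TPM and annotated exon length came to between 19566346 and 24383281 per library, and to between 156 and 1868 for each of the 10 genes in each library. SASH1 itself (chromosome 6, 148272304 to 148552050) stood at 15.0 and 13.0 TPM in shControl and at 3.65 and 4.01 TPM in shSASH1 (log2 change -1.63 ± 0.13 (SE), limma adjusted p = 0.00391). The epithelial markers EPCAM, KRT8 and KRT18 were at 543 TPM or more in every library. CDH1 was at 76.9 and 80.4 against 66.5 and 48.2 TPM (log2 change -0.47, limma adjusted p = 0.0913) and KRT5 at 758 to 1230 TPM, while KRT17 was at 466 and 465 against 560 and 227 TPM, low in shSASH1 replicate 2. Of the 7 epithelial markers EGFR alone was called. Their sum was 4980 to 5000 TPM in shControl and 5260 to 6200 TPM in shSASH1. That sum includes EGFR, at 1170 and 1070 against 2190 and 2200 TPM. EPCAM, KRT18 and CDH1 were lower in both depleted libraries than in both controls, though not called. For KRT8, KRT5 and KRT17 the groups overlapped. Groups did not overlap for 73.6% of all genes tested. The leukocyte markers PTPRC, CD3E and LYZ summed to at most 0.137 TPM. The fibroblast markers summed to 6.34 to 11 TPM, with COL1A2 at 0. Most of that sum was COL1A1, at 7.0 and 6.32 against 8.98 and 10.9 TPM (log2 change 0.51, limma adjusted p = 0.0557). The endothelial markers summed to 1.17 to 2.61 TPM. Most of it was PECAM1, at 2.2 and 2.01 against 0.551 and 1.36 TPM in all (log2 change -0.7, limma adjusted p = 0.123). PGR was listed at 0 in 3 libraries and at 0.0248 TPM in 1, while ESR1, the estrogen receptor this line is known to lack at the protein level, was at 2.29 to 3.64 TPM. In bulk RNA, fewer cells with a transcript and less of it per cell cannot be told apart.

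After SASH1 depletion the transcripts of SPRY2, SPRED1, SPRED2, ETV4 and ETV5 were higher, and those of the 3 phosphatases, SPRY1 and SPRY4 did not pass the test. ETV4 went up 2.08-fold, SPRED1 1.88-fold, SPRY2 1.69-fold, ETV5 1.68-fold and SPRED2 1.42-fold as ratios of mean TPM. All 10 genes passed the filter of a mean of at least 1 TPM, and limma called 5 higher and 0 lower at an adjusted p of 0.05. Over all 14458 genes tested it called 32.0% in either direction, 18.8% higher and 13.3% lower. The share of higher calls among all calls was 58.6% (2712 higher, 1918 lower), 48.4% after quantile normalization (2280 and 2433) and 47.4% with limma's voom on rebuilt reads (2534 and 2812). The median log2 change was 0.36 over the 10 genes and 0.06 over all genes tested. The libraries of the groups did not overlap for 7 of the 10 genes, beside 73.6% of all genes tested, a share near that of the feedback genes.

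**Figure D1:**
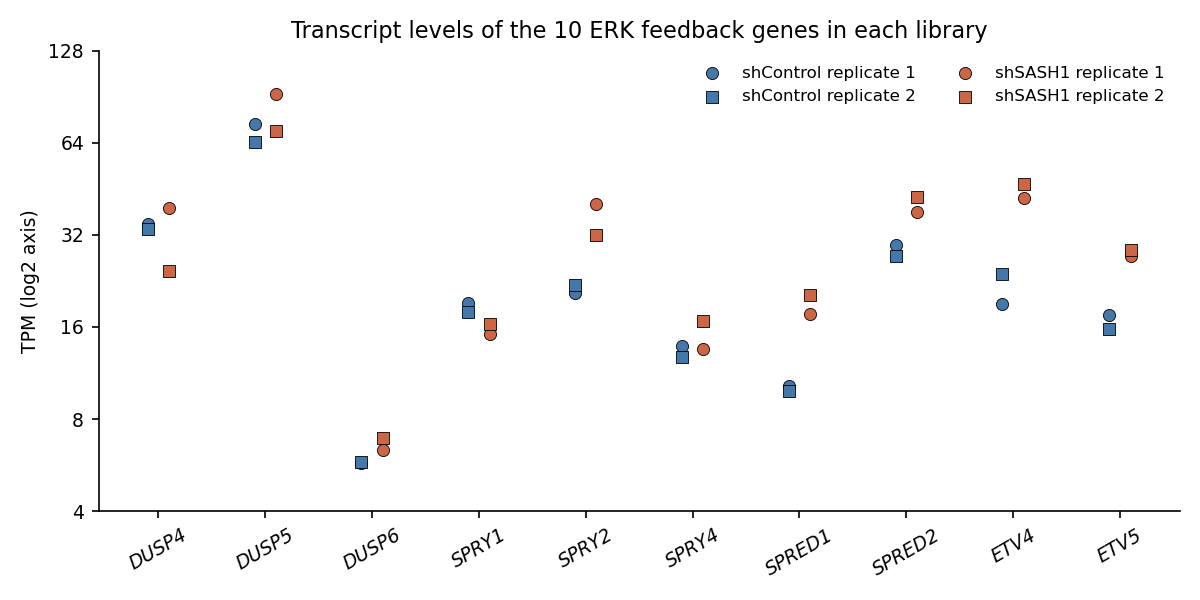
TPM of each of the 10 ERK feedback genes on a log2 axis in the 4 libraries (blue, shControl; orange, shSASH1; circles, replicate 1; squares, replicate 2). The orange points lie above the blue ones for SPRY2, SPRED1, SPRED2, ETV4 and ETV5, while for DUSP4 they lie on either side of them.

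**Figure D2:**
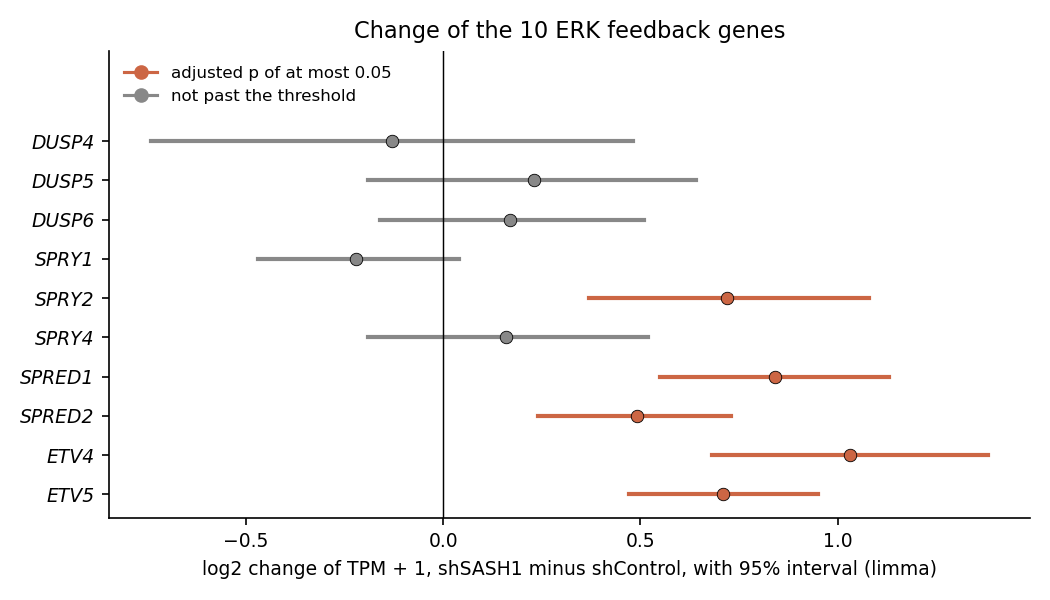
Log2 change of TPM + 1 between shSASH1 and shControl for each gene with limma's 95% interval, from 2 libraries per group. The intervals of the 5 called genes (orange) lie above 0, and those of the 5 others (grey) include 0.

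Of the 3 Sprouty genes SPRY2 rose, and SPRY1 and SPRY4 did not pass the test. SPRY2 (chromosome 13, 80335976 to 80340951, minus strand), an inhibitor of receptor signalling to RAS, was at 20.7 and 21.9 TPM in shControl and at 40.4 and 31.9 TPM in shSASH1. Both depleted libraries were above both controls, with replicate 1 the higher of the pair. Its mean rose from 21.3 ± 0.843 to 36.1 ± 6.01 TPM (SD, n = 2 per group), or 0.72 ± 0.13 (SE) in log2, at a limma adjusted p of 0.0205. SPRY1 (chromosome 4, 123396795 to 123403760, plus strand), its relative with the same type of role, was at 19.2 and 17.9 TPM in shControl and at 15.2 and 16.4 TPM in shSASH1. Its depleted libraries lay below both controls without overlap, but the change did not pass (log2 change -0.22, 95% interval -0.47 to 0.04, limma adjusted p = 0.147). SPRY4 (chromosome 5, 142310427 to 142326455, minus strand), the third Sprouty gene of the set, stood at 13.9 and 12.8 TPM against 13.6 and 16.8 TPM. There the groups overlapped, with shSASH1 replicate 1 between the controls, and the test was not passed (log2 change 0.16, interval -0.19 to 0.52, limma adjusted p = 0.386).

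The ratio of SPRY2 to SPRY1 within a library put the contrast on a common scale. It was 1.08 and 1.23 in shControl and 2.66 and 1.94 in shSASH1, so the level of SPRY2 was near that of SPRY1 in control cells and above it in both depleted libraries. The ratio of SPRY2 to SPRY4 was 1.49 and 1.71 in shControl and 2.96 and 1.90 in shSASH1. The groups did not overlap in either ratio, but the difference between the genes was not tested. Together the 3 Sprouty transcripts summed to 53.9 and 52.7 TPM in shControl and to 69.2 and 65.0 TPM in shSASH1. For SPRY1, a setting that subtracts the median change of tested genes within 10 Mb gave a log2 change of -0.53 and a call (limma adjusted p = 0.0263), since its 35 tested neighbours had a median of 0.31.

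Promoter sequence from RefSeq (GRCh38.p14) was at hand for 6 of the 10 genes, in 10 windows of 300 bases that reach from 250 bases before a transcript start to 50 after it. Windows for DUSP4, DUSP5, ETV4 and ETV5 were not among them. SPRY2, which rose, and SPRY1, which did not, are shown as relatives of which one was called, with SPRED2, which also rose. Each is the stretch before the first listed start that lies outside annotated exons, 5′ to 3′ on the gene's strand, in lower case with any match to the searched motifs in capitals.
SPRY2, chr13:80341127-80341376, minus strand: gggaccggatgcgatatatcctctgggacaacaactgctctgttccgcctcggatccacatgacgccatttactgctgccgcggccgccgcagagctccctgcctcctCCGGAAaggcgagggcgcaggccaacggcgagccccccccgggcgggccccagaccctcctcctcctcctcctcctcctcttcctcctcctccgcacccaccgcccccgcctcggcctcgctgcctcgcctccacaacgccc
SPRY1, chr4:123396545-123396794, plus strand: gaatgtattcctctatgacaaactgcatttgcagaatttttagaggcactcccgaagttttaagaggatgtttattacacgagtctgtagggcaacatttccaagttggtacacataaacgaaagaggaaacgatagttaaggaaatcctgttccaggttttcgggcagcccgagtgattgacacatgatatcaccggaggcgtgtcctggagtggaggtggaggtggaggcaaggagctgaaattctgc
SPRED2, chr2:65432638-65432849, minus strand: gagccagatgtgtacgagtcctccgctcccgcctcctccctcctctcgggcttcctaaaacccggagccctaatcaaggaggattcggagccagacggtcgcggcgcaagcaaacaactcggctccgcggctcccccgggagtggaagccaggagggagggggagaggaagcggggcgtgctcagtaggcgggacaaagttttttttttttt
The capitals mark the ETS core CCGGAA, which begins 142 bases before the start of SPRY2. The printed stretches of SPRY1 and SPRED2 held no match. A second start of SPRY1, inside the annotated gene, had the same core 67 bases before it, so the core was found in a window of the gene that rose and in one of the gene that did not.

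Motifs were searched on both strands over the whole 300 bases, and a match describes letters, not binding. The ETS core was in 17.2% of all 35116 RefSeq promoter windows and in 2 of the 10 windows here. The AP-1 site TGANTCA, in 7.71% of all windows, occurred at a second SPRED2 start, once across the start and again 34 bases after it. The TEAD core CATTCC, in 14% of windows, occurred just after the SPRY4 start. The Capicua octamers TGAATGAA (1.65% of windows) and TGAATGGA (1.03%), the cAMP response element TGACGTCA (1.85%) and the CArG box (1.29%) had no match in these 10 windows. Some of these motifs share letters, such as the Capicua octamers, but no matches overlapped in these windows. GC content over 300 bases ran from 39.3% at the second SPRED2 start to 76.3% at SPRED1, beside a median of 58.7% for all windows.

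Both Spred genes rose. SPRED1 (chromosome 15, 38252326 to 38357249, plus strand), which brings the RAS inhibitor neurofibromin to the membrane, was at 10.3 and 9.90 TPM in shControl and at 17.7 and 20.3 TPM in shSASH1. The controls lay close together and far below both depleted libraries. The mean went from 10.1 ± 0.277 to 19.0 ± 1.84 TPM (SD, n = 2 per group; log2 change 0.84 ± 0.11 (SE), limma adjusted p = 0.00929). SPRED2 (chromosome 2, 65310851 to 65432637, minus strand), which has the same type of role, was at 29.7 and 27.3 TPM in shControl and at 38.1 and 42.7 TPM in shSASH1. It rose by the smallest ratio of the 5 called genes (log2 change 0.49 ± 0.09 (SE), limma adjusted p = 0.0227). The ratio of SPRED2 to SPRED1 was 2.89 and 2.76 in shControl and 2.16 and 2.11 in shSASH1, and was thus lower in both depleted libraries. SPRED2 remained the more abundant of the pair in all 4 libraries. NF1, the gene of neurofibromin, had a log2 change of 0.17 (limma adjusted p = 0.195). Of the Sprouty and Spred genes outside the set, SPRY3 was listed at 0 in every library and SPRED3 stood at 2.09 and 1.91 against 0.961 and 2.41 TPM, with the shSASH1 libraries on either side of the controls.

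The phosphatases DUSP4, DUSP5 and DUSP6 gave no calls. DUSP5 (chromosome 10, 110497838 to 110511544, plus strand), a nuclear phosphatase specific for ERK, was the most abundant of the 10 genes, at 73.5 and 64.3 TPM in shControl and 92.6 and 70.1 TPM in shSASH1. Its groups overlapped, because shSASH1 replicate 2 lay between the controls (log2 change 0.23, interval -0.19 to 0.64, limma adjusted p = 0.313). DUSP6 (chromosome 12, 89347232 to 89353271, minus strand), the cytoplasmic ERK phosphatase and a standard readout of the pathway, was the least abundant, at 5.74 and 5.77 TPM against 6.32 and 6.93 TPM. Both depleted libraries were above both controls, with a ratio of means of 1.15 that did not pass (log2 change 0.17, interval -0.16 to 0.51, limma adjusted p = 0.338). DUSP4 (chromosome 8, minus strand), a nuclear phosphatase of ERK and related kinases, was at 34.8 and 33.4 TPM in shControl and at 39.2 and 24.4 TPM in shSASH1. One depleted library was above and the other below the controls, so the log2 change of -0.13 carried a wide interval of -0.74 to 0.48 (limma adjusted p = 0.682). Without shSASH1 replicate 1 the log2 change of DUSP4 was -0.46, and without replicate 2 it was 0.20. The upper bounds of 0.48, 0.64 and 0.51 for DUSP4, DUSP5 and DUSP6 lay within the interval of SPRY2 (0.37 to 1.08) and of SPRED2 (0.24 to 0.73), and no difference between the phosphatases and the called genes was tested.

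Both PEA3 genes of the set rose. ETV4 (chromosome 17, 43527844 to 43579620, minus strand) was at 19.0 and 23.8 TPM in shControl and at 42.4 and 46.9 TPM in shSASH1. The 2 control libraries differed more for ETV4 than for any other of the 10 genes (0.31 log2 units), yet both lay far under the depleted ones. The mean went from 21.4 ± 3.37 to 44.6 ± 3.20 TPM (SD, n = 2 per group; log2 change 1.03 ± 0.13 (SE), limma adjusted p = 0.00886). ETV4 was the only one of the 10 with a log2 change of at least 1 as well as a call, a mark reached by 8.91% of all genes tested. It kept its call but fell short of that mark after median-of-ratios scaling (0.98), after quantile normalization (0.94) and with voom (0.98). ETV4 was at 0.88 without shControl replicate 1 and at 1.19 without shControl replicate 2, and was not called in either. Its change was 1.1 without shSASH1 replicate 1 and 0.96 without shSASH1 replicate 2. ETV5 (chromosome 3, 186046308 to 186110318, minus strand) was at 17.5 and 15.8 TPM in shControl and at 27.4 and 28.5 TPM in shSASH1, both depleted libraries well above both controls. Its rise was 0.71 ± 0.09 (SE) in log2, at a limma adjusted p of 0.00886. Their sum was 36.6 and 39.6 TPM in shControl and 69.7 and 75.4 TPM in shSASH1, a ratio of means of 1.91. ETV1, the third PEA3 gene, stood lower at 2.25 and 2.85 against 3.39 and 4.51 TPM, did not overlap between groups and did not pass (log2 change 0.48, limma adjusted p = 0.141). Strand use in the counting is not given in the sources used here, and ETV4 overlaps the opposite-strand gene DHX8, which was at 20.8 and 20.7 against 24.0 and 23.6 TPM. The part of such shared reads in the ETV4 values was not tested.

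**Figure D3:**
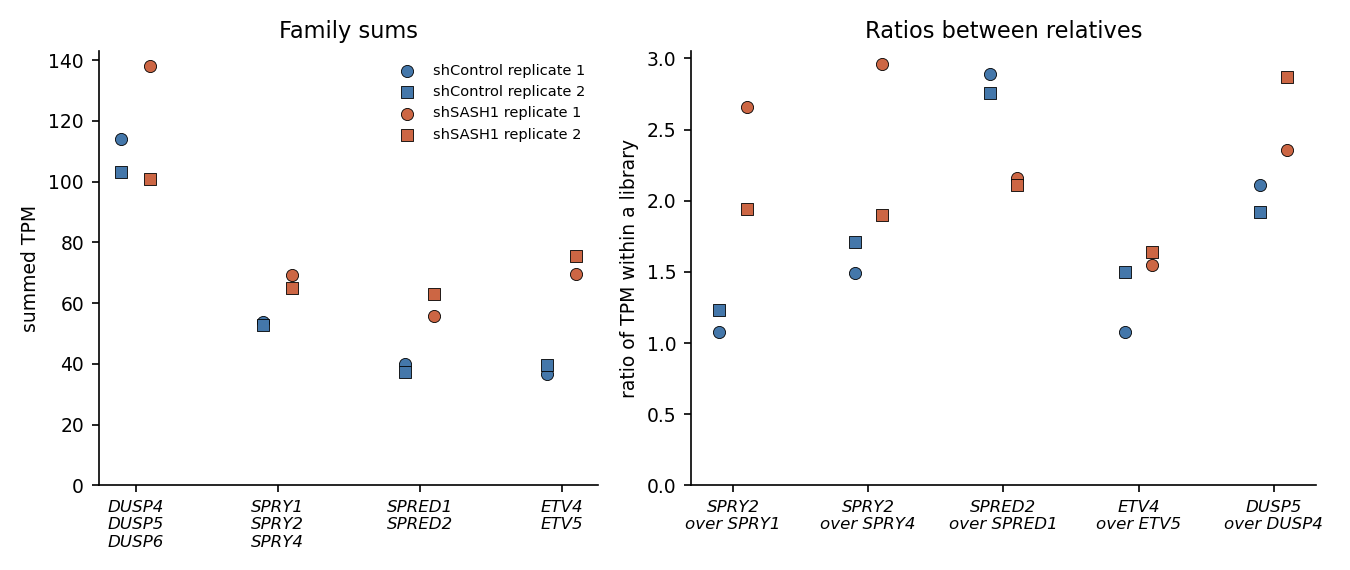
Left, summed TPM of each family per library; right, ratio of TPM between relatives within each library (colours and symbols as for the levels). The family sums separate the groups for SPRY, SPRED and ETV genes but not for the phosphatases, and SPRY2 over SPRY1 runs from 1.08 and 1.23 to 2.66 and 1.94.

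The family sums followed. The phosphatase sum was 114 and 103 TPM in shControl and 138 and 101 TPM in shSASH1, so its groups overlapped. The Spred sum was 40 and 37.2 against 55.7 and 63.0 TPM, without overlap. All 10 transcripts together made up 245 and 233 TPM in shControl and 333 and 305 TPM in shSASH1, a ratio of means of 1.34. These sums are descriptions of chosen genes and were not tested.

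The order of the levels changed in the middle of the range. In shControl it ran DUSP5, DUSP4, SPRED2, ETV4, SPRY2, SPRY1, ETV5, SPRY4, SPRED1 and DUSP6, from 68.9 to 5.76 TPM, and of neighbours in that order only ETV4 and SPRY2 overlapped between libraries. In shSASH1 it ran DUSP5, ETV4, SPRED2, SPRY2, DUSP4, ETV5, SPRED1, SPRY1, SPRY4 and DUSP6, from 81.3 to 6.62 TPM. There ETV4 and SPRED2, SPRED2 and SPRY2, SPRY2 and DUSP4, DUSP4 and ETV5, and SPRY1 and SPRY4 overlapped. ETV4 moved up past DUSP4 and SPRED2, and SPRED1 passed both SPRY1 and SPRY4, while DUSP5 and DUSP6 kept the ends.

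The 2 depleted libraries differed from each other more than the controls did. For the 10 genes, replicate 2 lay below replicate 1 in DUSP4 (-0.66 log2 units), DUSP5 (-0.40) and SPRY2 (-0.33), and above it in the other 7, by 0.06 (ETV5) to 0.28 (SPRY4). In shControl the same differences ran from -0.19 (DUSP5) to 0.31 (ETV4). Over all genes tested the SD within a group had a median of 0.0507 log2 units for shControl and 0.126 for shSASH1. Without either shControl library 0 of the 10 genes, and 0 genes in all, passed limma's threshold, the spread being then taken from the shSASH1 pair only. At an unadjusted p under 0.05, 5 of the 10 genes passed without shControl replicate 1 and 4 without replicate 2 (3446 and 3326 genes in all), and voom was not run on those subsets.

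**Figure D4:**
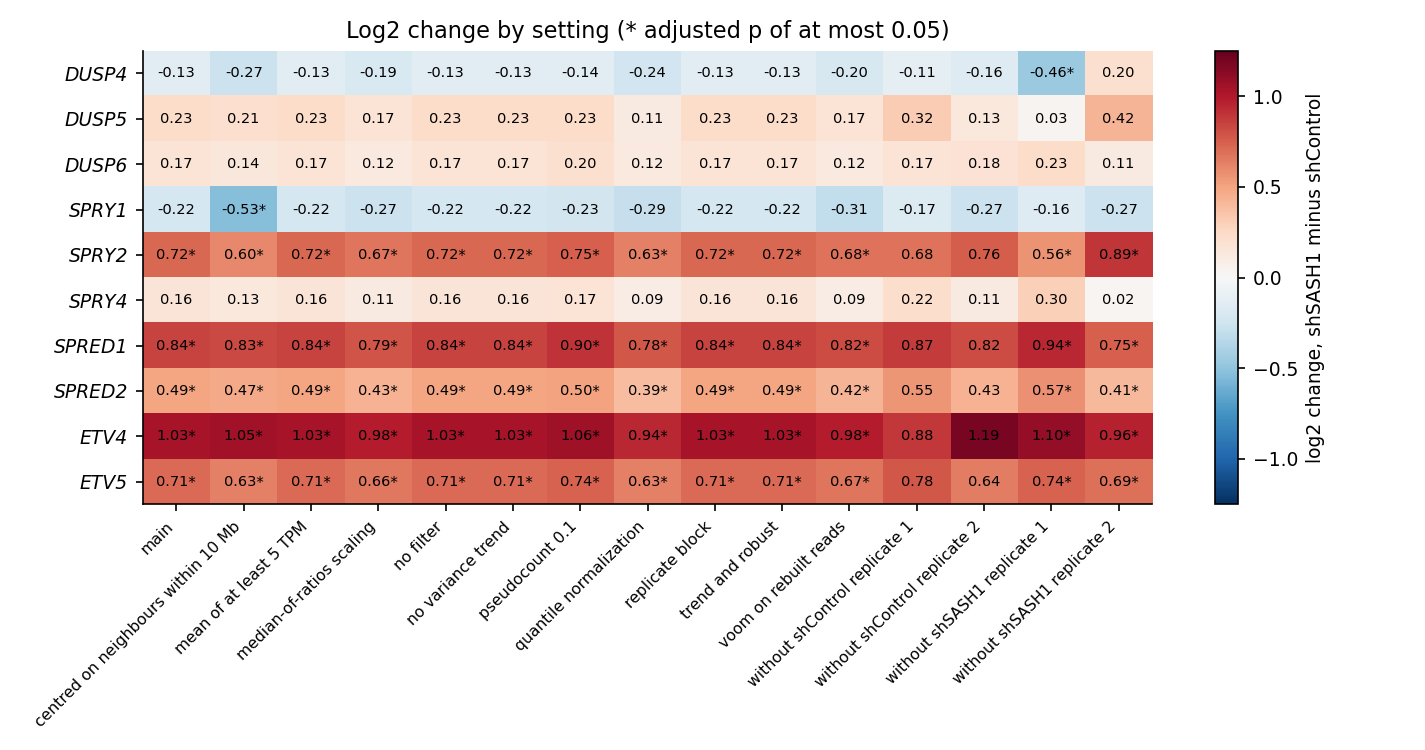
Log2 change of each of the 10 genes (rows) under the reported test ("main") and each other setting (columns), with colour for the size and an asterisk for a limma adjusted p of at most 0.05. The 5 called genes stay positive in every column and lose the asterisk in the 2 columns that leave out a shControl library; DUSP4 changes sign in 1 column.

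By likeness of pattern over the 4 libraries, measured as the root-mean-square difference of log2(TPM + 1) after subtracting each gene's shControl mean, the genes nearest to ETV4 were SMCO4 (0.0239), IFNGR2 (0.0440) and TCEAL1 (0.0518). SMCO4 was at 19.3 and 24.2 TPM in shControl and 41.6 and 47.8 TPM in shSASH1, nearly the levels of ETV4 as well as its pattern. Nearest to DUSP6 were RAD17 (0.00445), NFATC3 (0.0106) and FTL (0.0112), whose changes of 0.18 to 0.19 did not pass either. With 4 libraries many genes fit a pattern closely, and nothing is said here of shared function.

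Among the other genes of the pathway, taken from 7 lists with 84 genes, 81 were tested, of which 29 were called higher and 11 lower, beside 18.8% higher and 13.3% lower over all genes tested. The split was 25 and 16 after quantile normalization and 30 and 16 with voom. The shares called in each list below are to be read against 32.0% over all genes, and no list was tested against it. The lists were chosen with earlier results of these data known, so a share above 32.0% may come from that choice. The MAP kinase phosphatases outside the set gave calls both ways, with 3 of 7 higher, 1 lower (57.1% called) and a median log2 change of 0.56. DUSP2, a nuclear phosphatase, rose from 4.42 and 4.98 to 18.5 and 14.7 TPM (log2 change 1.62, limma adjusted p = 0.00501). DUSP16, which acts mainly on the stress kinases JNK and p38, rose from 21.8 and 23.8 to 38.6 and 48.6 TPM (0.90, limma adjusted p = 0.0123). DUSP9, a cytoplasmic ERK phosphatase related to DUSP6, fell from 7.27 and 8.73 to 0.715 and 1.52 TPM (log2 change -2.11, limma adjusted p = 0.00755). DUSP7, the other cytoplasmic relative of DUSP6, passed narrowly (0.37, limma adjusted p = 0.0440) and did not pass after median-of-ratios scaling (0.0676), after quantile normalization (0.0733), without a filter (0.0782), centred on its neighbours (0.0528) or with voom (0.0557). DUSP1, the classic immediate early phosphatase, was at 9.15 and 8.68 against 15.5 and 11.9 TPM (log2 change 0.56, limma adjusted p = 0.0555). It was called higher centred on its neighbours (0.85, limma adjusted p = 0.0242) and with the filter raised to a mean of 5 TPM (0.0474). DUSP10 had a log2 change of 0.77 (limma adjusted p = 0.119), or 0.33 centred (0.454).

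Of 10 genes for ETS factors linked to ERK and for the Capicua complex, 4 rose and 1 fell (50% called, beside 32.0% of all genes), with a median of 0.27. Centred on neighbours, 3 were called higher and 0 lower, beside 1894 higher and 1870 lower of all 14458 genes tested. CIC, the Capicua repressor of ETV4 and ETV5, stood at 58.9 and 58.4 against 64.1 and 71.3 TPM, short of the threshold (log2 change 0.20, limma adjusted p = 0.108). Its partner ATXN1 rose from 27.6 and 25.3 to 46.4 and 53.2 TPM (0.89, limma adjusted p = 0.00681). The ETS factor ETS1 (1.31) and the ternary complex factor ELK4 (1.0, or 0.60 centred on its neighbours) rose, while the repressor ERF did not pass (-0.18, limma adjusted p = 0.0735). ERF was called lower after median-of-ratios scaling (-0.24, limma adjusted p = 0.0468), after quantile normalization (-0.28, 0.0242) and with voom (-0.26, 0.0344). ELK1, another ternary complex factor, fell from 88.8 and 92.8 to 39.1 and 46.1 TPM (-1.08), but genes within 10 Mb on its chromosome had a median of -0.83 and its centred change of -0.25 did not pass (limma adjusted p = 0.120).

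At the top of the pathway, 7 of 16 receptor and adaptor genes rose and 2 fell (56.2% called, beside 32.0% of all genes), with a median of 0.30. EGFR rose from 1170 and 1070 to 2190 and 2200 TPM (log2 change 0.97, limma adjusted p = 0.00340), and MET, the receptor for hepatocyte growth factor, rose from 33.9 and 29.5 to 93.1 and 91.1 TPM (1.51). ERBB2 (-1.04) and FGFR3 (-1.04) fell. The adaptor SHC1 (0.36, or 0.02 centred on its neighbours) and the phosphatase PTPN11 (0.13) did not pass. Within the RAS-RAF-MEK-ERK cascade itself 3 of 16 genes (18.8%) were called, with a median of 0.10. The ERK-activated kinase RPS6KA1 rose (0.72), HRAS fell (-0.53), and ARAF fell from 80.5 and 78.5 to 33.7 and 31.0 TPM (-1.27, or -0.45 centred on its neighbours), while NRAS (0.14) and the ERK kinase MAP2K2 (0.21) did not pass. Centred on its neighbours NRAS was called higher (0.26, limma adjusted p = 0.0302). The cascade count was 6 with voom, 5 after quantile normalization and 5 centred on neighbours. Calls over all 14458 genes were then 5346, 4713 and 3764, so these counts are not to be read against 32.0%.

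Of 15 other negative regulators, 7 rose and 2 fell (60% called), with a median of 0.30. TESK1, a kinase that binds Sprouty proteins, rose (1.74, or 0.58 centred on its neighbours, whose median was 1.16), as did the RAS GTPase-activating protein RASA1 (0.67, or 0.40 centred). RASAL1, another such protein, fell (-1.36), as did LRIG1, which promotes EGFR breakdown, from 39.6 and 41.7 to 19.1 and 18.3 TPM (-1.08). The ubiquitin ligase CBLC (0.05) and the RAF-binding PEBP1 (-0.19, limma adjusted p = 0.0605) did not pass. PEBP1 was called lower centred on its neighbours (-0.22, limma adjusted p = 0.0491), after quantile normalization (-0.22, 0.0278) and with voom (-0.26, 0.0201).

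Of 18 other ERK-induced transcripts 16 were tested, of which 7 rose and 3 fell (62.5% called), with a median of 0.42. PHLDA1 rose from 17.6 and 16.7 to 53.0 and 59.0 TPM (1.65, limma adjusted p = 0.00220) and cyclin D1, CCND1, from 90.1 and 93.3 to 218 and 314 TPM (1.50, limma adjusted p = 0.00776). The immediate early factor EGR1 went the other way, from 114 and 115 to 14.8 and 32.6 TPM (-2.33, limma adjusted p = 0.0142), as did EGR3, from 4.88 and 4.60 to 0.0605 and 0.0379 TPM, which rests on 2 and 1 rebuilt reads in shSASH1. The receptor EPHA2 (0.23) and the cytokine LIF did not pass, LIF being at 64.7 and 65.4 against 103 and 33.6 TPM. The log2 change of LIF was -0.93 without shSASH1 replicate 1 and 0.66 without replicate 2. The feedback genes that rose thus stood beside ERK-induced transcripts that rose and others that fell in the same libraries.

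**Figure D5:**
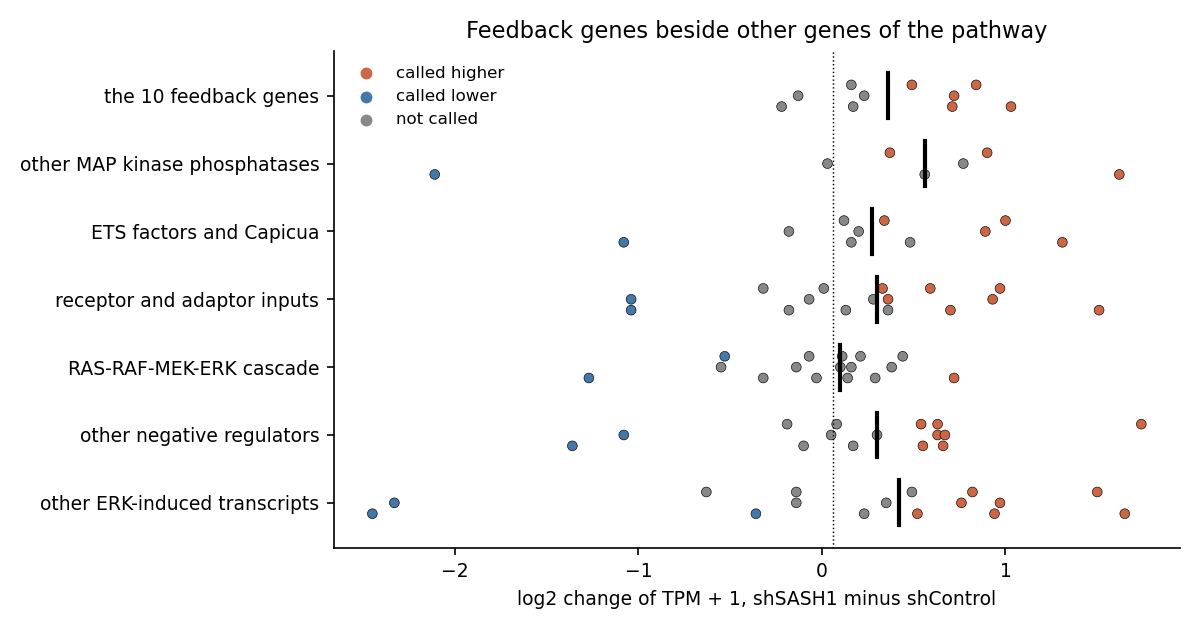
Log2 change of TPM + 1 of each tested gene (points) in the feedback set and in 6 other lists of the pathway; orange, called higher; blue, called lower; grey, not called; thick bars, list medians; dotted line, median of all genes tested (0.06). The feedback set has no blue point and a median of 0.36, while the cascade genes lie around a median of 0.10.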

How the data were processed

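RNA-seq values of 4 MDA-MB-468 libraries, grouped by their titles, were deposited by the authors as TPM per Ensembl gene; the listed rows sum to 910830 to 926711 per library. STAR, DESeq2 and hg38 appear in the submitters' processing notes with no version or role; read counter, gene lengths and strand use: not given in the sources used here. All 26518 identifiers were found in GENCODE release 29 (hg38), and symbols came from a current table. Genes averaging 1 TPM or more were tested with limma 3.58.1 (R 4.3.3) on log2(TPM + 1), with a variance trend and no block, two-sided, with Benjamini-Hochberg adjustment over 14458 genes. Fold changes on that scale understate changes of low genes. Reads were rebuilt from TPM times exon length with a scale per library; 88.7% to 89.3% of values up to 20 reads came within 0.05 of a whole number. Between replicates these reads gave a chi-square of 2.19 per degree of freedom in shControl and 24.1 in shSASH1. Each library counted as its own sample, but these values cannot show whether replicates were grown apart. Tested on 5 simulated data sets of 14458 genes, limma recovered 43.0% of changes of 1 log2 unit and 76.0% of changes of 2, with 3.39% of calls false. The simulated sets changed only a small part of the genes and gave both groups the same spread. Real groups differed in spread and many more genes were called, so these shares need not hold here. The members and lists were chosen with earlier results of these data known. Named were the 10 members, SASH1, up to 4 called genes with the largest absolute change and up to 2 uncalled genes with the highest TPM per list, and the 3 genes most like DUSP6 and ETV4 with a mean of at least 5 TPM; ETV1, NF1, SPRY3, DHX8 and some of the fixed markers were named beside them after their values were seen. Alternatives were another pseudocount, filters, scalings, variance models, leaving out each library, a block for replicate number, a minimum change, voom and centring on genes within 10 Mb. Promoters were read from RefSeq tables (GRCh38.p14). Python 3.11.15 with pandas 2.3.3 was used for joins.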

Additional observations from a re-analysis of the deposited data

How the results depend on the processing

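The 5 calls among the feedback genes kept their direction and stayed past the threshold in each of the 10 settings that keep all 4 libraries and the same call rule, with log2 changes of 0.39 to 1.06. Leaving out each library in turn gave 0 to 6 called feedback genes, 0 to 53 called genes of the other pathway lists (40 with all libraries) and 0 to 7728 called genes in all (4630). With a log2 change of at least 1 required, 1 feedback gene, 16 other pathway genes and 1288 genes in all were called. Named genes that did not pass changed sign in few settings. CBLC was at -0.01 after median-of-ratios scaling, -0.02 after quantile normalization, -0.03 with voom and, with each library left out in turn, at -0.01 to 0.10. Over the same subsets DUSP4 ran from -0.46 to 0.20, LIF from -0.93 to 0.66 and SPRED3 from -0.61 to 0.18, the extremes being without an shSASH1 library. The replicate numbers come from the titles, which give no pairing between groups. Deviations of same-numbered libraries had a correlation of -0.0322 for both numbers, which must be equal with 2 libraries a group. Such a value cannot show whether same-numbered libraries were prepared together. With the replicate number as a block, 3929 genes in all, 5 feedback genes and 36 other pathway genes were called, and DUSP7 did not pass (limma adjusted p = 0.104). The causes of these differences were not tested. When a library is left out, the spread is taken from a single pair. DUSP6 had the fewest rebuilt reads of the feedback genes, with 156 to 192 per library.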

Other observations

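Genes of the pathway lists too low to be tested are given as values. EREG, an EGFR ligand induced by ERK, was at 0.0298 and 0.0765 TPM in shControl (1 and 3 rebuilt reads) and at 0.373 and 0.668 TPM in shSASH1 (14 and 20 reads). HMGA2, a chromatin protein, was at 0.177 and 0.161 TPM in shControl and at 0.356 and 0.0620 TPM in shSASH1, with the depleted libraries on either side of the controls. SPRY4-AS1, which is transcribed from the strand opposite SPRY4 and overlaps its annotated span, was listed at 2.07 and 1.29 TPM in shControl and at 3.03 and 2.85 TPM in shSASH1.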
